A study of Mus musculus with 18 samples.

Results

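Heat shock proteins and cytosolic chaperones are the proteins that fold newly made and damaged proteins in the cell. A set of 47 mouse genes that encode them was followed by platform gene symbol in ventricular myocardium. Each gene was read from the probe set with the highest mean over the 18 arrays of the study. A probe set with a single gene symbol was found for 45 of the 47 genes, among 18193 genes that had one, and Hsp90ab1 and Hsf1 were not analysed here. All 45 genes passed the filter on low signal, which left 10916 genes to test.

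The arrays came from 4 groups of mice with 1 array per sample. Leptin treated mice were ob/ob animals that received leptin from osmotic mini-pumps for 1 month (n = 5). Calorie restricted mice were ob/ob animals fed for 1 month the caloric intake of the leptin treated mice (n = 5). Ad libitum mice were ob/ob animals that ate freely for that month (n = 4). The ob/ob mouse carries a mutation that removes functional leptin, the fat-derived hormone that restrains appetite and raises energy use, so all 3 ob/ob groups lacked their own leptin. All ob/ob mice were on the C57Bl/6J background and were aged to 6 months before the month of treatment. Wild type mice were C57Bl/6J (n = 4), given as 6 months old in the sample labels and as 6 to 8 months old in the series design. The labels do not say whether animals were pooled. The comparison of leptin treated with calorie restricted mice asks about leptin at matched caloric intake, and that of calorie restricted with ad libitum mice asks about restriction in the absence of leptin.

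Chaperones work in relays. Proteins of the HSP70 family bind exposed hydrophobic stretches of unfolded proteins in a cycle driven by ATP, J proteins bring substrates to them and trigger the hydrolysis, and HSP110 and BAG proteins exchange the nucleotide and release the substrate. HSP90 takes over partly folded clients such as kinases and steroid receptors, with cochaperones that load clients or set its ATPase rate. Small heat shock proteins hold unfolding proteins without ATP and are abundant in heart muscle, where they sit on sarcomeres. The CCT complex folds actin and tubulin in a closed chamber, and HSP60 with its lid HSP10 forms a folding chamber in mitochondria. Heat shock factors switch on many of these genes by binding repeated nGAAn units in their promoters, and unfolded protein, heat and other stresses raise this activity.

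Several whole-series facts touch the results below. Median signal per array lay between 22.3 and 31.8. Of 8 ventricular muscle markers, 0 were called in any comparison, although all 8 values lay above 0 in each of the 3 comparisons with wild type hearts, and their summed signal was at least 40516 on every array. Calorie restricted replicates 2 and 3 stood apart in atrial markers. On these arrays Myl7, which encodes a myosin light chain of the atria, reached 3448 and 3548, and the other 3 arrays of the group had between 3.58 and 635. The summed signal of 6 atrial markers ranged from 1848 to 3126 in leptin treated, from 1687 to 15798 in calorie restricted, from 858 to 2611 in ad libitum and from 1631 to 3513 in wild type hearts. The 6 macrophage markers summed to 2566 to 3524 in leptin treated, 1450 to 2077 in calorie restricted, 2065 to 2677 in ad libitum and 2322 to 4102 in wild type hearts. Of these 6 macrophage markers, 3 were called lower in calorie restricted than in ad libitum hearts, 6 higher in leptin treated than in calorie restricted hearts, and 5 lower in calorie restricted than in wild type hearts. In the same 3 comparisons 3 of 6 fibroblast markers were called in the same directions as the macrophage markers, and of 6 endothelial markers 2, 2 and 0 were. Fibroblast markers summed to 4377 to 5439 in leptin treated, 3696 to 4830 in calorie restricted, 4149 to 4710 in ad libitum and 3965 to 6163 in wild type hearts. Endothelial markers summed to 1796 to 2079 in leptin treated, 1338 to 1642 in calorie restricted, 1661 to 2298 in ad libitum and 1428 to 2048 in wild type hearts. The 2 adipocyte markers summed to at most 75.9, and the 3 lymphocyte markers to at most 52.9. The part of these other cells in the results was not tested. In bulk tissue fewer cells of a type and less RNA per cell cannot be told apart.

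Calorie restriction without leptin was accompanied by lower transcript levels of a group of cytosolic chaperone genes. Of the 45 genes 8 were called lower and 0 higher in calorie restricted than in ad libitum ob/ob hearts, a share of 17.8% lower, while 7.95% of all tested genes were called, 4.42% lower and 3.53% higher. The 8 genes were the J protein genes Dnaja1, Dnajb2, Dnajb4 and Dnajb5, the HSP90 gene Hsp90aa1, the HSP90 partner Chordc1, the HSP110 gene Hsph1 and the cochaperone gene Bag2. Their log2 changes ran from -0.83 for Dnajb5 to -0.45 for Bag2 and Dnajb4. The median log2 change of the 45 genes was -0.07, against -0.0038 over all tested genes, and 29 of the 45 had a value below 0. A gene counts as called when its limma p, adjusted by the Benjamini-Hochberg method over all tested genes, is under 0.05, and all changes are on the log2(signal + 5.13) scale. For 8 genes, Hspa2, Hsp90aa1, Chordc1, Fkbp4, Dnajb2, Dnajb4, Dnajb5 and Bag2, the arrays of both groups did not overlap, when 10.8% of all tested genes had groups that did not overlap. Hspa2 was the exception in direction, with all calorie restricted arrays above the ad libitum ones. The calls of Hsp90aa1, Dnaja1, Dnajb2, Dnajb4, Dnajb5 and Bag2 held when any single array was left out. Hsph1 was no longer called without ad libitum replicate 1, 3 or 4 or calorie restricted replicate 2, 3 or 5 (adjusted p 0.0575 to 0.147), and Chordc1 was no longer called without ad libitum replicate 4 (0.0508). Hspa8 was called lower without calorie restricted replicate 4 (0.0395) and Stip1 without ad libitum replicate 2 (0.027). Without calorie restricted replicates 2 and 3, or with an atrial covariate in the fit, 5 of the 8 stayed called. Chordc1, Dnaja1 and Hsph1 did not, with adjusted p of 0.108, 0.0597 and 0.253 without those arrays. The changes were then -0.46 for Chordc1 and -0.52 for Hsph1, beside -0.67 and -0.78 with all arrays. Those arrays had the lowest signals of their group for Hsph1 (88.7 and 113) and Chordc1 (175 and 215). For Dnaja1 they had 333 and 294, with 300.1, 442 and 304 in the others.

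Hearts of leptin treated ob/ob mice had higher levels than calorie restricted hearts of a wider set of the genes, at matched caloric intake. Of the 45 genes 15 were called higher and 0 lower, a share of 33.3%, against 17.9% of all tested genes called, 10.4% higher and 7.5% lower. Hsph1 was 2.27-fold higher, Chordc1 1.76-fold, Dnajb2 1.73-fold, Hsp90aa1 1.62-fold and Hspe1, the mitochondrial HSP10 gene, 1.55-fold. The other 10 were Dnaja1, Bag2, Dnajb5, Hspb1, Ahsa1, Stip1, Dnaja4, Dnajb4, Fkbp4 and Hspa8, with log2 changes from 0.25 for Hspa8 to 0.70 for Dnaja1. The median log2 change of the 45 genes was 0.17, against -0.01 over all tested genes, and 35 of the 45 lay above 0. The groups did not overlap for 13 of the 45 genes, with 12.8% over all tested genes. Of the 13 only Hspa4 lay lower in leptin treated hearts, and its other probe sets, given below, had the opposite sign. Of the 15 calls 12 held with any single array left out, and Hspa8, Hspb1 and Fkbp4 did not. Hspa8 lost its call without any 1 of 8 of the 10 arrays (adjusted p 0.0512 to 0.105), all but calorie restricted replicate 4 and leptin treated replicate 3. Fkbp4 lost it without any 1 of 7, which were calorie restricted replicates 1 to 4 and leptin treated replicates 1, 3 and 5 (0.0514 to 0.0798), and Hspb1 without leptin treated replicate 1 or 2 (0.0521 to 0.0577). Hspa4l was called higher without calorie restricted replicate 2 or leptin treated replicate 1 or 4 (0.0239 to 0.0493). Leaving out calorie restricted replicates 2 and 3 gave 10 calls, 9 of them among the 15. The log2 changes of Hsph1 and Chordc1, 1.18 and 0.81 with all arrays, were then 0.92 and 0.60.

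Calorie restricted hearts also differed from wild type hearts. Of the 45 genes 13 (28.9%) were called lower and 2 (4.44%) higher, with 14.9% of all tested genes called, 8.2% lower and 6.71% higher. Hsph1 had the lowest value with a log2 change of -1.46, followed by Chordc1 (-0.99) and Hsp90aa1 (-0.88), and the 2 higher genes were the small heat shock protein genes Hspb2 (0.34) and Hspb7 (0.32). The median over the 45 genes was -0.13, against 0.0012 over all tested genes. The groups did not overlap for 14 of the 45 genes, where 15.7% of all tested genes did not overlap. Of the 14 only Hspb2 lay higher in calorie restricted hearts. Only Hspa4l, Hsph1, Hsp90aa1, Ahsa1, Chordc1, Dnaja1, Dnajb2 and Bag2, 8 of the 15, held their call with any single array left out. Hspb2 lost its call without calorie restricted replicates 2 to 5 or wild type replicates 2 to 4, each left out alone (adjusted p 0.0617 to 0.123), and Hspb7 without calorie restricted replicates 2 to 5 or wild type replicates 1 to 3 (0.0552 to 0.162). Fkbp4 lost it without any 1 of the 9 arrays (0.0603 to 0.154), Dnaja4 without wild type replicate 1, 3 or 4 (0.0516 to 0.072), Dnajb4 without calorie restricted replicate 2 or wild type replicate 1 (0.0545 to 0.089), Stip1 without wild type replicate 1 (0.0508) and Dnajb5 without wild type replicate 4 (0.0635). Hspa8 was called lower without calorie restricted replicate 4 (0.0313). With calorie restricted replicates 2 and 3 both left out 9 of the 15 stayed called. Hsph1 and Chordc1 were among them, with smaller changes of -1.20 and -0.78. These 3 comparisons share the calorie restricted arrays, so their values are not independent of each other.

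**Figure D1:**
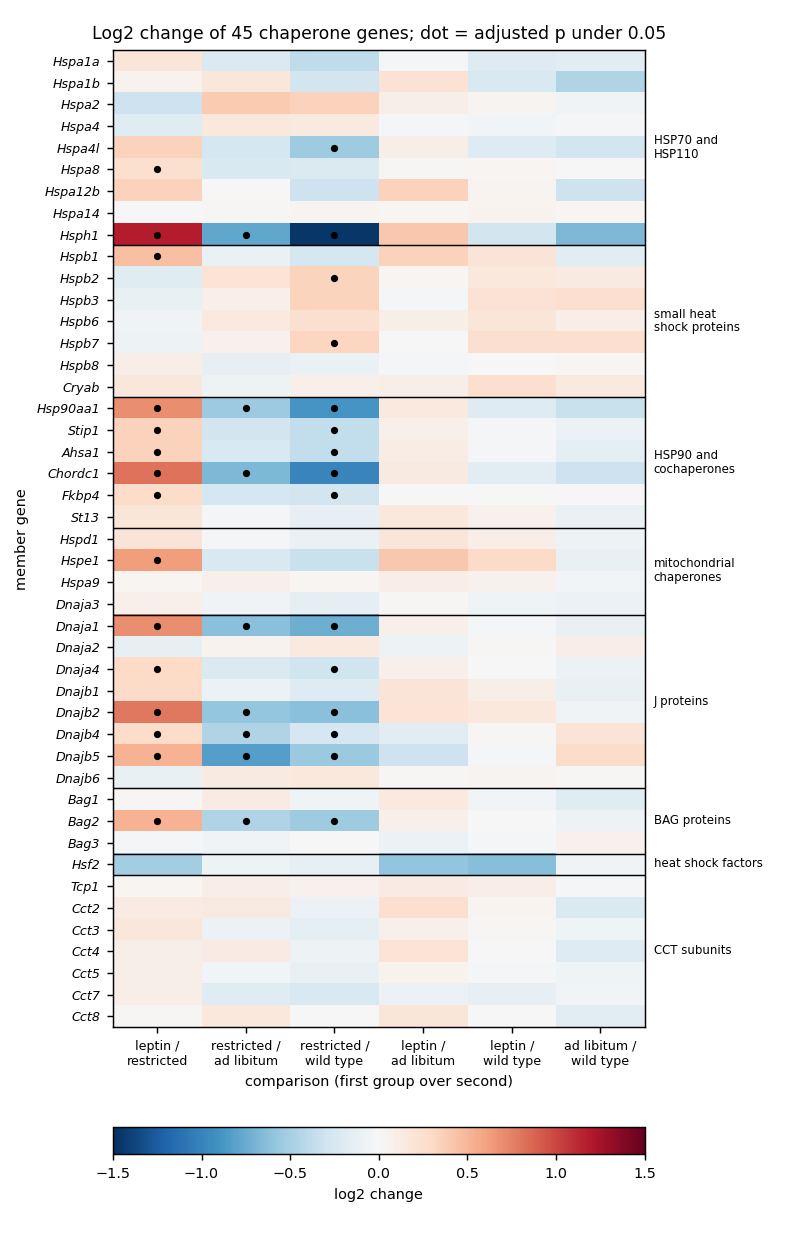
Log2 change of the 45 genes (rows, grouped by role) in the 6 comparisons (columns, first group over second), with colour from -1.5 to 1.5 and a dot where the adjusted p was under 0.05. Dots stand only in the 3 comparisons that include the calorie restricted group, with 15, 8 and 15 genes, and rows of the CCT subunits hold none.

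Among HSP90 and its cochaperones, 2 of the 6 genes measured were called lower in calorie restricted than in ad libitum hearts, 5 of 6 were higher in leptin treated than in calorie restricted hearts, and 5 of 6 were lower in calorie restricted than in wild type hearts. The shares were 33.3%, 83.3% and 83.3%, beside 4.42%, 10.4% and 8.2% of all tested genes called in those directions. Hsp90aa1 encodes the stress-inducible HSP90 isoform. Its signal was 1207, 1297, 1320.3, 1409 and 1510.4 in leptin treated hearts, 717, 819, 853, 970.4 and 802 in calorie restricted hearts, 1421, 1016, 1132 and 1334 in ad libitum hearts, and 1694, 1616, 1464 and 1376 in wild type hearts. All 5 calorie restricted arrays lay below every array of the other groups. The mean was 1349 ± 116 in leptin treated (SD, n = 5), 832 ± 92.2 in calorie restricted (n = 5), 1226 ± 185 in ad libitum (n = 4) and 1538 ± 144 in wild type hearts (n = 4). The log2 change was -0.55 ± 0.11 (SE) in calorie restricted against ad libitum hearts (adjusted p 0.00468), 0.70 ± 0.10 in leptin treated against calorie restricted hearts (2.06e-04) and -0.88 ± 0.11 in calorie restricted against wild type hearts (6.27e-05).

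Chordc1 encodes a zinc-binding protein, also known as morgana, that binds HSP90. Its signal was 329.9, 492.98, 383, 435 and 544 in leptin treated hearts, 254, 175, 215, 289 and 303 in calorie restricted hearts, 407, 358, 363 and 439 in ad libitum hearts, and 588, 457, 471 and 442 in wild type hearts. The calorie restricted arrays were again the 5 lowest, and the ad libitum arrays also lay below all wild type arrays. The change was -0.67 ± 0.16 in calorie restricted against ad libitum hearts (adjusted p 0.0145), 0.81 ± 0.15 in leptin treated against calorie restricted hearts (0.00138) and -0.99 ± 0.16 in calorie restricted against wild type hearts (5.71e-04). In ad libitum against wild type hearts it was -0.31 ± 0.17, which was not called (0.50).

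Ahsa1, which activates the HSP90 ATPase, had signals of 916, 841, 776, 837 and 834 in leptin treated hearts, 636, 633, 599, 745 and 687 in calorie restricted hearts, 768, 692, 871 and 777 in ad libitum hearts, and 954, 768, 820.1 and 872 in wild type hearts. The leptin treated and calorie restricted arrays did not overlap, while ad libitum replicate 2 lay inside the calorie restricted range. Ahsa1 was 0.35 ± 0.08 higher in leptin treated than in calorie restricted hearts (adjusted p 0.00718) and its change in calorie restricted against wild type hearts was -0.37 ± 0.09 (0.00889). With the mean of both its probe sets the Ahsa1 values were 0.11 (adjusted p 0.38) and -0.23 (0.0763), and neither was called. Stip1, the adaptor that hands clients on from HSP70 to HSP90, averaged 285 ± 17.3 in leptin treated, 222 ± 11.8 in calorie restricted, 272 ± 37.6 in ad libitum and 288 ± 28.8 in wild type hearts. Fkbp4, an immunophilin of steroid receptor complexes, averaged 733 ± 49.9 in leptin treated, 606 ± 19.5 in calorie restricted, 735 ± 107 in ad libitum and 736 ± 63.8 in wild type hearts. In calorie restricted against ad libitum hearts neither Stip1 (-0.28, adjusted p 0.0708) nor Fkbp4 (-0.27, 0.0784) passed the threshold. St13, the HSP70-interacting protein Hip, was called in no comparison, with changes between -0.12 and 0.18.

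**Figure D2:**
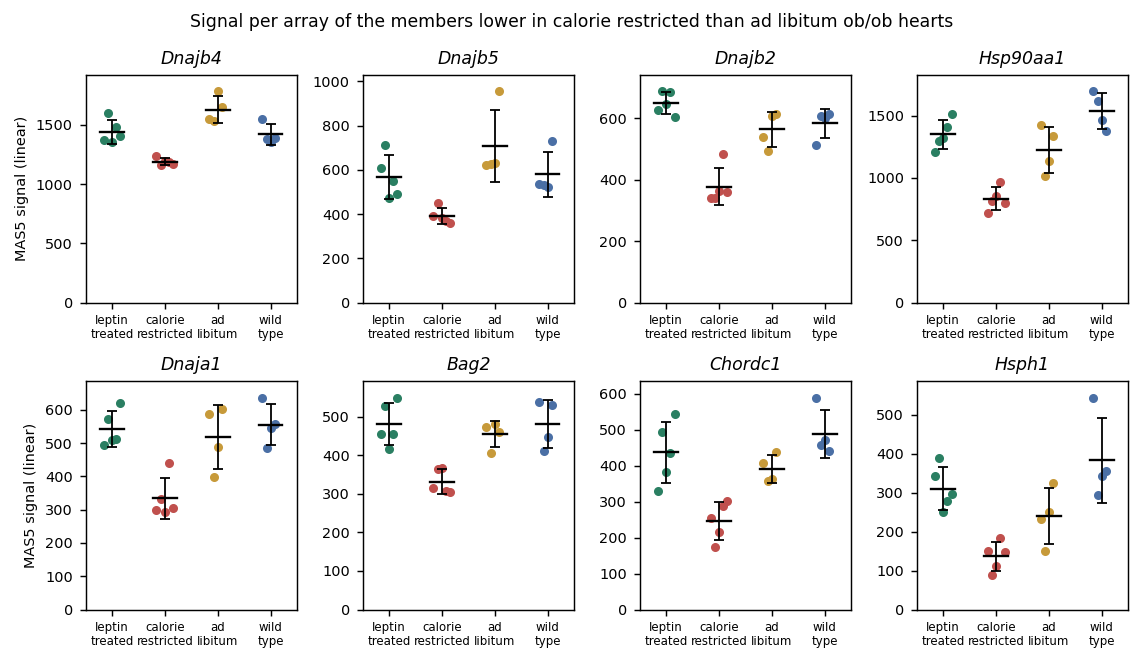
MAS5 signal (linear vertical axis from 0) of the 8 genes called lower in calorie restricted than in ad libitum ob/ob hearts. Each point is 1 array and bars show the mean and SD of 5, 5, 4 and 4 arrays, and the calorie restricted group has the lowest mean in all 8 panels, 136 for Hsph1 and 832 for Hsp90aa1, for example.

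Of 8 J protein genes, 4 were called lower in calorie restricted than in ad libitum hearts, 5 were higher in leptin treated than in calorie restricted hearts and 5 were lower in calorie restricted than in wild type hearts. These 4, 5 and 5 of 8 stand beside 4.42%, 10.4% and 8.2% of all tested genes called in the same directions. Dnajb2 encodes a J protein that also binds ubiquitin chains and delivers clients for degradation. Its signal was 628, 688, 648, 685 and 606 in leptin treated hearts, 342, 341, 362, 483 and 359 in calorie restricted hearts, 539.8, 495, 608 and 614 in ad libitum hearts, and 513, 607, 602 and 613 in wild type hearts. No calorie restricted array reached any array of another group, and replicate 4 stood above the rest of its group. Dnajb2 had the smallest p-value of the set, with changes of 0.79 ± 0.10 in leptin treated against calorie restricted hearts (adjusted p 4.5e-05), -0.58 ± 0.10 in calorie restricted against ad libitum hearts (0.00212) and -0.63 ± 0.10 in calorie restricted against wild type hearts (5.82e-04).

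Dnaja1 encodes a farnesylated partner of cytosolic HSP70. Its signal was 494, 573, 509, 511 and 621 in leptin treated hearts, 300.1, 333, 294, 442 and 304 in calorie restricted hearts, 587, 397, 488 and 602 in ad libitum hearts, and 635, 485, 546 and 556 in wild type hearts. Calorie restricted replicate 4 exceeded ad libitum replicate 2, so those groups overlapped, while the leptin treated and wild type arrays lay above all calorie restricted ones. The changes were -0.62 ± 0.14 in calorie restricted against ad libitum hearts (adjusted p 0.00898), 0.70 ± 0.13 in leptin treated against calorie restricted hearts (0.00124) and -0.73 ± 0.14 in calorie restricted against wild type hearts (0.0016).

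Dnajb4, a J protein gene, had 1371, 1603, 1352, 1479 and 1408 in leptin treated hearts, 1242, 1158, 1197, 1184 and 1172 in calorie restricted hearts, 1548, 1531, 1783 and 1654 in ad libitum hearts, and 1548, 1384, 1358 and 1389 in wild type hearts. The 5 calorie restricted arrays were close together and below every other array. The change was -0.45 ± 0.07 in calorie restricted against ad libitum hearts (adjusted p 0.00105), 0.27 ± 0.07 in leptin treated against calorie restricted hearts (0.0094) and -0.25 ± 0.07 in calorie restricted against wild type hearts (0.025). With the mean of all its probe sets Dnajb4 was called in none of these, with -0.29 (adjusted p 0.0707), 0.05 (0.734) and -0.08 (0.677) in the same order of comparisons. Dnajb5 had 608, 715, 473, 551 and 490.1 in leptin treated hearts, 390.4, 452, 382, 367 and 359.7 in calorie restricted hearts, 620.1, 628, 633 and 955 in ad libitum hearts, and 536, 530.2, 524 and 729.8 in wild type hearts. Its calorie restricted arrays lay below all others, and ad libitum replicate 4 and wild type replicate 4 stood well above the rest of their groups. The Dnajb5 change was -0.83 ± 0.15 in calorie restricted against ad libitum hearts (adjusted p 0.00211), 0.52 ± 0.14 in leptin treated against calorie restricted hearts (0.0142) and -0.56 ± 0.15 in calorie restricted against wild type hearts (0.0162).

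In Dnajb4 and Dnajb5 the ad libitum mean, 1629 ± 116 and 709 ± 164, was the highest of the 4 groups, while in Hsp90aa1, Chordc1, Hsph1, Dnaja1 and Bag2 the wild type mean was the highest. Differences among the leptin treated, ad libitum and wild type groups were called for none of these genes. Dnaja4, a J protein gene expressed in muscle, averaged 820 ± 38.0 in leptin treated, 669 ± 48.8 in calorie restricted, 780 ± 84.4 in ad libitum and 826 ± 63.0 in wild type hearts, and its change was 0.29 ± 0.08 in leptin treated against calorie restricted hearts (adjusted p 0.0162). Dnajb1, the main heat-inducible J protein HSP40, was called in no comparison and averaged 230.1 ± 30.6 in leptin treated, 187 ± 16.04 in calorie restricted, 199.5 ± 17.1 in ad libitum and 217 ± 33.0 in wild type hearts. Dnaja2 and Dnajb6 were also called in none, with changes of 0.05 and 0.14 in calorie restricted against ad libitum hearts.

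Among 9 genes of the HSP70 and HSP110 families, Hsph1 was the only one called in calorie restricted against ad libitum hearts. This is a share of 11.1%, with 7.95% of all tested genes called. Hsph1 encodes HSP105, a nucleotide exchange factor of HSP70. Its signal was 343, 388, 249, 277 and 296 in leptin treated hearts, 151, 88.7, 113, 183 and 147 in calorie restricted hearts, 233, 151, 249.9 and 325 in ad libitum hearts, and 542, 294, 342 and 355 in wild type hearts. Calorie restricted arrays lay below all leptin treated and wild type arrays, and ad libitum replicate 2 fell within their range. The mean was 311 ± 55.1 in leptin treated (SD, n = 5), 136 ± 36.5 in calorie restricted (n = 5), 239.7 ± 71.3 in ad libitum (n = 4) and 383 ± 109 in wild type hearts (n = 4). The change was -0.78 ± 0.23 in calorie restricted against ad libitum hearts (adjusted p 0.0424), 1.18 ± 0.21 in leptin treated against calorie restricted hearts (0.00116) and -1.46 ± 0.23 in calorie restricted against wild type hearts (4.29e-04). A second probe set of Hsph1 gave -0.91 ± 0.15 in calorie restricted against ad libitum hearts (adjusted p 0.0017 over all probe sets above the filter).

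Hspa8 encodes the constitutive HSC70, which also serves clathrin uncoating and autophagy. It had 4062, 4273, 3779, 4446 and 4181 in leptin treated hearts, 3407, 3299, 3143, 4090.1 and 3599 in calorie restricted hearts, 4376, 3757, 4309 and 3921 in ad libitum hearts, and 4194, 4191, 4163 and 3709 in wild type hearts. Only calorie restricted replicate 4 reached into the ranges of the other groups. The change was 0.25 ± 0.08 in leptin treated against calorie restricted hearts (adjusted p 0.0396) and -0.22 ± 0.08 in calorie restricted against ad libitum hearts, which was not called (0.119). Hspa4l, another HSP110 gene, averaged 199.6 ± 24.8 in leptin treated, 157 ± 31.4 in calorie restricted, 187 ± 18.1 in ad libitum and 227 ± 13.3 in wild type hearts, and was called lower in calorie restricted than in wild type hearts (-0.54 ± 0.13, adjusted p 0.00912).

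The classical heat-inducible genes Hspa1a and Hspa1b were called in no comparison. Hspa1a had signals of 47.8, 35.8, 49.3, 32.9 and 49.7 in leptin treated hearts, 32.7, 34.7, 41.5, 42.1 and 34.2 in calorie restricted hearts, 57.4, 27.9, 51.6 and 43.2 in ad libitum hearts, and 56.3, 52.5, 40.6 and 50.1 in wild type hearts. Hspa1b had 86.9, 78.5, 121, 91.4 and 146 in leptin treated hearts, 127, 103, 109, 89.4 and 72.9 in calorie restricted hearts, 157, 68.1, 66.0 and 80.1 in ad libitum hearts, and 140.4, 111, 98.3 and 139 in wild type hearts. The groups overlapped in both genes. Hspa1a and Hspa1b are near-identical neighbours whose transcripts can share probes, and the 3 probe sets of Hspa1b gave changes of 0.17, -0.07 and -0.33 in calorie restricted against ad libitum hearts, so their single values are uncertain. Hspa2, Hspa4, Hspa12b and Hspa14 were called in none. Of these Hspa2, best known from the testis, averaged 72.5 ± 11.5 in leptin treated, 90.5 ± 11.8 in calorie restricted, 67.2 ± 5.61 in ad libitum and 70.4 ± 9.73 in wild type hearts, and its change of 0.40 ± 0.12 in calorie restricted against ad libitum hearts had an adjusted p of 0.0545.

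BAG proteins link HSP70 to release and degradation of its clients. Bag2, which also blocks the ubiquitin ligase CHIP, had signals of 455, 528, 416, 455 and 548 in leptin treated hearts, 316, 365, 366, 306 and 305 in calorie restricted hearts, 473, 407, 480.2 and 459.8 in ad libitum hearts, and 539, 412, 447 and 530.2 in wild type hearts. The calorie restricted arrays were the 5 lowest of the 18. The change was -0.45 ± 0.10 in calorie restricted against ad libitum hearts (adjusted p 0.0126), 0.53 ± 0.10 in leptin treated against calorie restricted hearts (0.00152) and -0.53 ± 0.10 in calorie restricted against wild type hearts (0.00251). Bag3, which works with HSPB8 in the removal of damaged sarcomere proteins, had 1473, 1397, 1332, 1397 and 1323 in leptin treated hearts, 1097, 1611, 1476, 1555 and 1393 in calorie restricted hearts, 1368, 1255, 1578 and 1723 in ad libitum hearts, and 1332, 1339, 1393 and 1562 in wild type hearts. All groups overlapped in Bag3, and neither Bag3 nor Bag1 was called in any comparison.

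Of the small heat shock protein genes, 0 of 7 were called in calorie restricted against ad libitum hearts, where 7.95% of all tested genes were. Hspb1, which encodes HSP27 (HSP25 in the mouse), had 4558, 4862, 3038, 3563 and 3916 in leptin treated hearts, 2569, 2882, 2731, 3606 and 2681 in calorie restricted hearts, 3013, 2541, 3453 and 3418 in ad libitum hearts, and 3743, 3272, 3415 and 3369 in wild type hearts. Leptin treated replicates 1 and 2 were the highest of all arrays, and calorie restricted replicate 4 reached the leptin treated range. Hspb1 was 0.45 ± 0.13 higher in leptin treated than in calorie restricted hearts (adjusted p 0.0194), and its 0.35 ± 0.13 in leptin treated against ad libitum hearts was not called (0.217). Cryab, alphaB-crystallin of the sarcomere Z-disc, had 6467, 7390.1, 4971, 6259 and 5799 in leptin treated hearts, 4961, 5530.1, 4853, 6195 and 5832 in calorie restricted hearts, 5578, 5361, 6162 and 5947 in ad libitum hearts, and 5263, 5049, 4974 and 5431 in wild type hearts. The groups overlapped and Cryab was called in no comparison.

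Hspb2, the gene next to Cryab, averaged 924 ± 116 in leptin treated, 1038 ± 42.5 in calorie restricted, 909 ± 129.8 in ad libitum and 821 ± 57.5 in wild type hearts. Hspb7, a cardiovascular small heat shock protein, averaged 5569 ± 577 in leptin treated, 5884 ± 652 in calorie restricted, 5608 ± 550 in ad libitum and 4707 ± 549 in wild type hearts. Both were called higher in calorie restricted than in wild type hearts (adjusted p 0.0393 and 0.0499), the opposite direction to the 13 lower genes. Besides the single arrays given above, Hspb7 lost its call with quantile normalization, where its change was 0.11 (0.387), and with a pseudocount of 1, and Hspb2 with the replicate number as a block and with the mean of all probe sets of each gene. Of 19 alternatives 13 ended the call of Hspb7 and 12 that of Hspb2. The 8 ventricular muscle markers also had values above 0 in this comparison, from 0.19 to 0.29 with a median of 0.25, none of them called. Their summed signal ranged from 47524 to 60972 in calorie restricted and from 41121 to 44784 in wild type hearts, and their part in the Hspb2 and Hspb7 values was not tested. Hspb3, Hspb6 and Hspb8 were called in no comparison, with changes of 0.34, 0.24 and -0.10 in calorie restricted against wild type hearts.

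Of 4 mitochondrial chaperone genes 1 was called in leptin treated against calorie restricted hearts, a share of 25% beside 17.9% of all tested genes. In calorie restricted hearts 0 of 4 were called against ad libitum hearts (7.95% of all tested genes) and 0 of 4 against wild type hearts (14.9%). With so few genes these shares are coarse. Hspe1, which encodes HSP10, had signals of 1969, 2116, 1251, 1680.4 and 1616 in leptin treated hearts, 1033, 1025, 947, 1353 and 1175 in calorie restricted hearts, 1271, 1099, 1349.8 and 1437 in ad libitum hearts, and 1515, 1261, 1377 and 1418 in wild type hearts. Leptin treated replicate 3 lay inside the calorie restricted range and the other 4 leptin treated arrays lay above it. The change was 0.63 ± 0.13 in leptin treated against calorie restricted hearts (adjusted p 0.00292), -0.22 ± 0.14 in calorie restricted against ad libitum hearts (0.375) and 0.40 ± 0.14 in leptin treated against ad libitum hearts (0.162). Hspd1, which encodes its partner HSP60, had 2672, 2646, 2263, 2481 and 2207 in leptin treated hearts, 1969, 2196, 1956, 2368 and 2216 in calorie restricted hearts, 2060.5, 1951, 2261 and 2380.2 in ad libitum hearts, and 2453, 2093, 2093 and 2521 in wild type hearts. The groups overlapped, and the change of 0.20 ± 0.09 in leptin treated against calorie restricted hearts was not called (0.137). Hspa9 and Dnaja3, the mitochondrial HSP70 and J protein genes, were called in none.

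**Figure D3:**
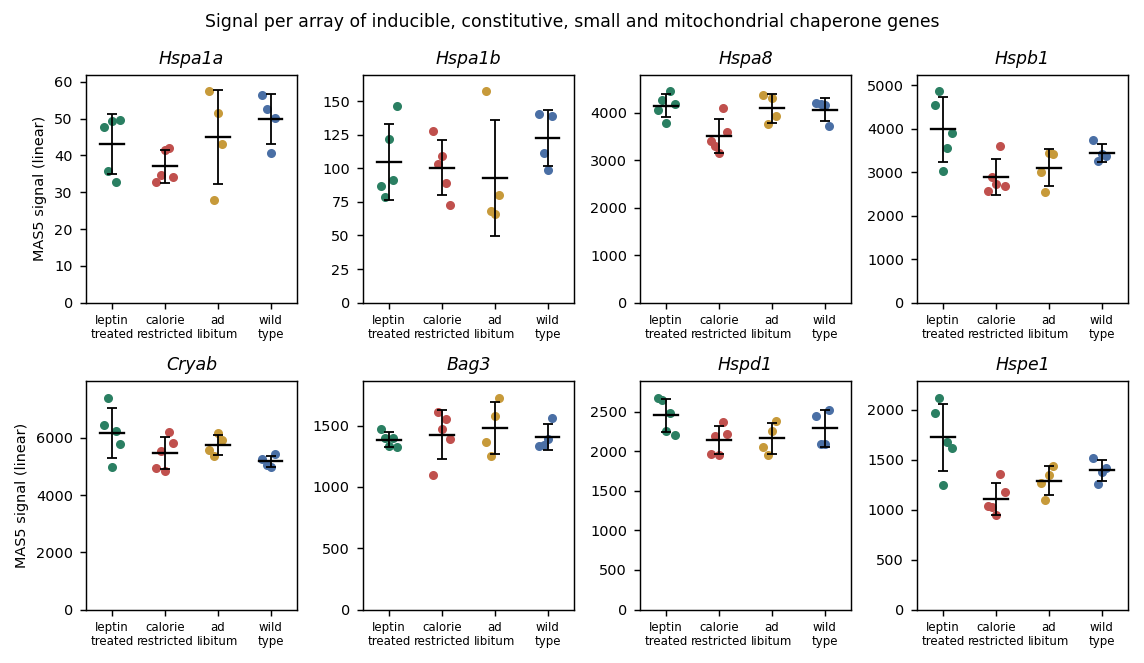
MAS5 signal (linear vertical axis from 0) of 8 inducible, constitutive, small and mitochondrial chaperone genes, 1 point per array with mean and SD of 5, 5, 4 and 4 arrays. The groups overlap in all 8 panels. The leptin treated mean is the highest for Hspa8, Hspb1, Cryab, Hspd1 and Hspe1, at 3987 for Hspb1 and 1726 for Hspe1, for example.

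The CCT chaperonin was called in none of the comparisons. Of all tested genes 7.95% were called in calorie restricted against ad libitum hearts. The share was 17.9% in leptin treated against calorie restricted and 14.9% in calorie restricted against wild type hearts. So 0 of 7 genes does not set this family apart. Changes of the 7 measured CCT subunits, Tcp1, Cct2, Cct3, Cct4, Cct5, Cct7 and Cct8, lay between -0.18 and 0.16 in calorie restricted against ad libitum hearts. They lay between 0.02 and 0.17 in leptin treated against calorie restricted hearts. Hsf2, a heat shock factor active in development, averaged 39.3 ± 13.8 in leptin treated, 63.4 ± 39.1 in calorie restricted, 66.2 ± 31.1 in ad libitum and 64.2 ± 22.6 in wild type hearts and was not called. In all, 18 of the 45 genes were called in at least 1 comparison and 27 in none. The share of all tested genes called in at least 1 comparison was not computed, so this count has no background.

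Some arrays held the highest or lowest place in their group for several of the 8 genes lower under restriction than ad libitum. Ad libitum replicate 2 had the lowest signal of its group for 7 of the 8 genes and ad libitum replicate 4 the highest for 5. Wild type replicate 1 was the highest of its group for 6. Calorie restricted replicate 4 was the highest of its group for 4, and replicate 2 the lowest for 4. Ad libitum replicate 2 was also the lowest of its group for Hspa8, Hspb1, Cryab and the ventricular marker Myl2, though not for Hspa1b. Such ranks were not counted over all tested genes, so they are not shown to be particular to the 8 genes.

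The remaining comparisons held no call among the 45 genes. In leptin treated against ad libitum ob/ob hearts 0 were called, with 1.04% of all tested genes called. An unadjusted p under 0.05 was reached by 6 of the 45 (13.3%) and by 15.2% of all tested genes, so this count lay no higher than the background. The 6 were Hspe1 (0.40), Hspb1 (0.35), Cct2 (0.25) and Cct4 (0.20) with higher values and Dnajb5 (-0.31) and Dnajb4 (-0.17) with lower values in leptin treated hearts. The median of the 45 genes was 0.08, against -0.0037 over all tested genes. The groups overlapped in all 45 genes, where 5.93% of all tested genes had groups that did not.

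In ad libitum ob/ob against wild type hearts, the comparison of genotype, 0 of the 45 were called, with 0.376% of all tested genes called. An unadjusted p under 0.05 was reached by 5 of the 45 (11.1%) and by 11.5% of all tested genes, which is again no excess. Of these 5, Hsph1 had a change of -0.68 (95% interval -1.18 to -0.17, adjusted p 0.26) and Hsp90aa1 of -0.33 (-0.58 to -0.09, 0.251). Cct2 (-0.21), Hspb7 (0.25) and Dnajb4 (0.20) were the other 3. The groups did not overlap in 4 genes, Hspa4l, Chordc1, Dnaja2 and Cct2, of which only Dnaja2 lay higher in ad libitum hearts, with 7.96% over all tested genes. The median was -0.07, against 0.0032 over all tested genes, and 32 of the 45 values lay below 0. In leptin treated ob/ob against wild type hearts 0 of the 45 were called, with 0.0183% of all tested genes called. An unadjusted p under 0.05 was reached by 2 of the 45 (4.44%), Hspb7 (0.24) and Cryab (0.24), and by a larger share, 11.1%, of all tested genes. The median there was 0.01, against 0.0041 over all tested genes, and the groups overlapped in all 45 genes, where 3.58% of all tested genes had groups that did not. After quantile normalization this median was -0.02, and 8 genes with values near 0 changed sign.

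Several probe sets per gene allowed a second reading of the called genes. In leptin treated against calorie restricted hearts, 10 of the 15 called genes had 16 further probe sets above the filter, of which 14 had the same sign and 11 were called in a fit over all probe sets. The further sets of Hsp90aa1 gave 0.86 ± 0.16 and 0.53 ± 0.15, those of Dnaja1 0.47 ± 0.15 and 0.36 ± 0.10, and that of Hspe1 0.38 ± 0.08. The mean of all sets ended the calls of Ahsa1, Dnajb4, Fkbp4 and Hspa8 here. Opposite signs came from 1 set each of Dnajb4 (-0.47 ± 0.20, mean signal 57.0) and Ahsa1 (-0.13 ± 0.14, mean signal 51.0). The 3 sets of Hspa8 gave 0.25, 0.04 and 0.40, of which only the last was called. Hspa4 was not called on its set of highest mean (-0.19), but its other sets gave 0.64 (adjusted p 0.00144) and 0.52 (0.0479). With the mean of all its sets Hspa4 was called here and in calorie restricted against wild type hearts. In calorie restricted against ad libitum hearts 8 of 9 further sets had the same sign and 5 were called, and in calorie restricted against wild type hearts 17 of 18 and 14.

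**Figure D4:**
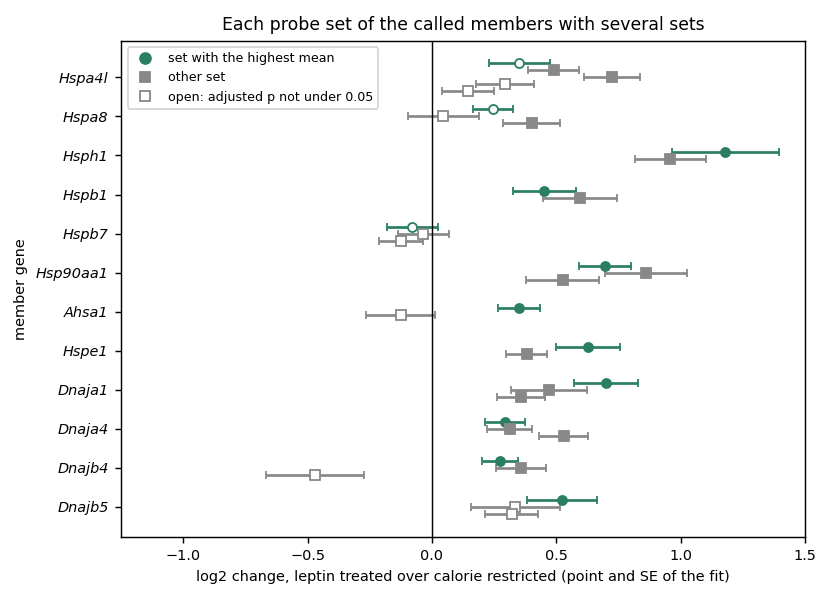
Log2 change (horizontal axis, leptin treated over calorie restricted, point and SE of the fit) of each probe set of the genes called in any comparison that have several, with circles for the set of highest mean and squares for the others. Most sets lie to the right of 0, and those to the left are 1 set of Dnajb4 at -0.47, 1 set of Ahsa1 at -0.13, within its SE of 0, and the sets of Hspb7, a gene not called in this comparison.

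Heat shock factors bind inverted repeats of GAA, so the promoter windows of the genes were searched for them. RefSeq windows on GRCm38.p6, from 250 bases before to 50 bases after an annotated start, held an entry for 38 of the 47 genes in 52 windows. An element of 3 units, with TTC, GAA and TTC, or GAA, TTC and GAA, in this order and 2 bases of any kind between neighbouring units, was found in 5 of the 38 genes, Hsph1, Chordc1, Hspe1, Hspd1 and Dnajb6, and in 0.662% of 27025 genes with a window. An element of 2 units, TTC and GAA or GAA and TTC with the same spacing, which the longer one contains, was found in 18 of 38 genes and in 17.0% of all genes. Each of these patterns reads as itself or as its partner on the opposite strand, so both strands were covered. Of the 8 genes called lower in calorie restricted than in ad libitum hearts 7 had a window, and 2 of these, Hsph1 and Chordc1, held the longer element and 4, with Dnaja1 and Dnajb4, the shorter one. A match is a run of letters and does not show binding. The windows of Hsph1, Chordc1 and Hspe1 are shown because these genes held the longer element and were among those with the largest values in leptin treated against calorie restricted hearts. They run 5′ to 3′ on the strand of the gene from 250 bases before to 30 bases after an annotated start, with the 3-unit elements in capitals.
Hsph1 chr5:149636286-149636565 (- strand): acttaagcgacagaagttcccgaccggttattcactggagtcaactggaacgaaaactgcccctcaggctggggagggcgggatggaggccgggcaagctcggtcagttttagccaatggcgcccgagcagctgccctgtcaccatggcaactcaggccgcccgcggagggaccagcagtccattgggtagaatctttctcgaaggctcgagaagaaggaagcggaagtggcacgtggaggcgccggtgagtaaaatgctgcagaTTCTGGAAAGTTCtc
Chordc1 chr9:18292017-18292296 (+ strand): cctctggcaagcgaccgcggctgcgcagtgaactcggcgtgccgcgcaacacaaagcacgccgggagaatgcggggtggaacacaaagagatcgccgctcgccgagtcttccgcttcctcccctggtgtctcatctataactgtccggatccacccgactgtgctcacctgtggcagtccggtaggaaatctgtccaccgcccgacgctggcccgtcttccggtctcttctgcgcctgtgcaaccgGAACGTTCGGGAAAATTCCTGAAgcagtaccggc
Hspe1 chr1:55087898-55088177 (+ strand): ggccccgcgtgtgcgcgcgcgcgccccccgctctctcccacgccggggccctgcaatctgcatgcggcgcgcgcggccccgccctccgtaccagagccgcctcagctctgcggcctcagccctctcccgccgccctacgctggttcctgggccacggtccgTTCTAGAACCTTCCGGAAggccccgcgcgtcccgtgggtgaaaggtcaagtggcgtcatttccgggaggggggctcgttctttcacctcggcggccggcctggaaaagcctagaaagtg
In Hsph1 the element begins 15 bases after the start of the window shown and 36 bases after another annotated start. In Chordc1 3 overlapping elements begin between -4 and 6 relative to the start, and in Hspe1 2 overlapping elements begin at -89 and -84. Hspe1 and Hspd1 lie head to head with 0 protein-coding genes between them and their windows share 285 bases, so the Hspd1 element is the same stretch read from the other strand. Their calls differed, since Hspe1 was called in leptin treated against calorie restricted hearts (adjusted p 0.00292) and Hspd1 was not (0.137), and the difference between both genes was not tested. Dnajb6 held the longer element and was called in no comparison.

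Further chaperone and cochaperone genes outside the 45, most of them cytosolic, were called about as often as genes in general. Of 35 such genes tested, 3 were called higher and 1 lower in calorie restricted than in ad libitum hearts. In leptin treated against calorie restricted hearts 1 was called higher and 4 lower. In calorie restricted against wild type hearts 4 were called higher and 2 lower. These are shares of 11.4%, 14.3% and 17.1% called, where 7.95%, 17.9% and 14.9% of all tested genes were called in the same comparisons. By direction, 8.57% were higher and 2.86% lower in calorie restricted than in ad libitum hearts (all tested genes 3.53% and 4.42%). In leptin treated against calorie restricted hearts 2.86% were higher and 11.4% lower (10.4% and 7.5%). Against wild type hearts 11.4% were higher and 5.71% lower in calorie restricted hearts (6.71% and 8.2%). More of these calls ran opposite to those of the 45 genes than with them. Dnajc7, a J protein that binds both HSP70 and HSP90, averaged 373 ± 61.7 in leptin treated, 735 ± 101 in calorie restricted, 423 ± 12.8 in ad libitum and 420.2 ± 46.4 in wild type hearts, and its change was 0.78 ± 0.12 in calorie restricted against ad libitum hearts (adjusted p 7.78e-04). Nudc, an HSP90 cochaperone, was 0.36 higher (0.018), and Hspa12a, an atypical HSP70, had a change of -0.45 (0.036) in the same comparison.

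Chaperones of the endoplasmic reticulum were called in the same directions as the 8 cytosolic genes. Of 14 tested, 3 were lower in calorie restricted than in ad libitum hearts, 8 higher in leptin treated than in calorie restricted hearts and 8 lower in calorie restricted than in wild type hearts. The shares were 21.4%, 57.1% and 57.1%, where 4.42%, 10.4% and 8.2% of all tested genes were called in those directions. Manf, a stress-induced secreted factor of that compartment, averaged 329 ± 42.5 in leptin treated, 184 ± 32.3 in calorie restricted, 295 ± 42.3 in ad libitum and 279.7 ± 50.5 in wild type hearts. The 3 genes were Manf (-0.67, adjusted p 0.00764), Sdf2l1 (-0.66, 0.00896) and Dnajc3 (-0.46, 0.00221). Of 8 tested genes of mitochondrial import and folding, Clpx was called higher in calorie restricted than in ad libitum hearts (0.66, 0.0248), 1 gene was called lower in leptin treated than in calorie restricted hearts and 0 were called in calorie restricted against wild type hearts. Of 6 tested stress genes outside the chaperones 0, 1 (higher) and 1 (lower) were called in those 3 comparisons. The shares called were 12.5%, 12.5% and 0% of the import and folding genes and 0%, 16.7% and 16.7% of the stress genes. Of all tested genes 7.95%, 17.9% and 14.9% were called in the same order. Cirbp, an RNA-binding protein induced by mild cold, averaged 183 ± 44.7 in leptin treated, 763 ± 142 in calorie restricted, 272 ± 34.2 in ad libitum and 243 ± 21.7 in wild type hearts. All calorie restricted arrays lay above all others, and the change was 1.46 ± 0.16 in calorie restricted against ad libitum hearts (adjusted p 5.98e-05). In leptin treated against ad libitum hearts the Cirbp change was -0.58 and not called (0.0914).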

How the data were processed

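RNA from mouse ventricular myocardium was hybridised to Affymetrix arrays, 1 per sample, in 4 groups taken from the labels. The deposited values are linear signal intensity per probe set. Per the submitters' processing notes the authors used MAS5, of which neither version nor settings are given in the sources used here. The mean of each array without the lowest and highest 2% of sets was 100.001, so the intensities carry a scaling per array. Scaling removes differences in total signal. No detection calls were used.

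Of 45101 probe sets, 64 controls were left out. The platform annotation gave 34945 sets 1 symbol and 932 several, and only sets with 1 symbol were used. RefSeq identifiers matched 34741 sets and changed 0 symbols. Signals were taken as log2(signal + 5.13), with 5.13 the 20th percentile of all signals, and genes with a mean under the 40th percentile of gene means (5.18) were left out. This scale understates the change of low genes. One model over 18 arrays with a coefficient per group was fitted in limma 3.58.1 (R 4.3.3), with 6 two-sided contrasts, each adjusted by Benjamini-Hochberg over 10916 genes. Adjusted p-values come from this fit unless stated. Nothing in the labels ties samples to separate extractions, so p-values reflect only the spread among these samples, and the number of arrays limits the precision. The procedure was tested on simulated data.

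Called genes were named in each comparison, with values per array for the 10 of smallest p and a fixed set of chaperone genes. The genes, lists, rules and tests were chosen with earlier results of these data known. Alternatives changed the pseudocount (1 and 16), filter, normalization, probe set rule, groups in the fit, block, atrial covariate and arrays left out.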

Additional observations from a re-analysis of the deposited data

Results flagged for a closer look

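In 10 of 180 sets of arrays, each 1 gene in 1 group, a single array stood apart from the others of its group by Dixon's criterion, which chance alone meets in about 1 of 20. Among the 8 genes called lower under restriction, Dnajb2 in calorie restricted replicate 4 was high at 483, with 341 to 362 in the other arrays, and in wild type replicate 1 low at 513, with 602 to 613 in the others. Dnajb5 was high in ad libitum replicate 4 at 955 (others 620.1 to 633) and in wild type replicate 4 at 730 (others 524 to 536). The calls of Dnajb2 held without each of these arrays. That of Dnajb5 in calorie restricted against wild type hearts did not hold without wild type replicate 4 (adjusted p 0.0635).

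In the other J protein and BAG genes, Dnaja2 was high in ad libitum replicate 3 at 3405 (others 2871 to 2892), Dnajb1 low in wild type replicate 3 at 167 (others 230.0 to 235) and Bag1 high in ad libitum replicate 1 at 1006 (others 825 to 853). Of the HSP70 and HSP110 genes, Hspa4 was high in calorie restricted replicate 5 at 786 (others 598 to 636) and Hspa8 low in wild type replicate 4 at 3709 (others 4163 to 4194). The mitochondrial Hspa9 was low in wild type replicate 3 at 1582 (others 1668 to 1677).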

How the results depend on the processing

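The counts of the 45 genes called were recomputed under 10 alternatives and with each array left out, and 0 of the called changes reversed direction. In calorie restricted against ad libitum hearts the count of 8 became 5 with the atrial covariate and 5 without calorie restricted replicates 2 and 3. In calorie restricted against wild type hearts 15 became 9 without those arrays, and in ad libitum against wild type hearts 0 became 1 (Fkbp4, lower) with the mean of all probe sets of a gene. In leptin treated against calorie restricted hearts 15 became 10 under both atrial settings. Leaving out single arrays gave 6 to 9 calls in calorie restricted against ad libitum, 13 to 16 in leptin treated against calorie restricted, 10 to 15 in calorie restricted against wild type, and 0 in each of the other 3 comparisons. Fewer arrays remain in these fits. The Hsph1 and Chordc1 values were also closer to 0 without calorie restricted replicates 2 and 3, in all 3 comparisons with that group. The cause of the losses without those arrays or with the covariate was not tested. With the replicate number as a block the counts in these 3 comparisons were 8, 13 and 11. The labels do not say whether the numbers pair the samples. At most 2 of 4 arrays correlated best with the array of their own number in any comparison, and so few arrays cannot decide the question. The filter on probe set means, added after seeing the data, gave 7, 14 and 12, no filter 7, 13 and 10, and quantile normalization 11, 17 and 18.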
